A study of Mus musculus with 16 samples.

Results

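Genes encoding mitochondrial ribosomal proteins were followed in skeletal muscle RNA of HFD-fed male mice. Members were the rows of the count table whose mouse symbol starts with Mrpl or Mrps and a digit, without pseudogene symbols, and with at least 10 counts in at least 6 libraries. Of 78 such symbols, 77 met the count minimum, and all 77 were among the 14331 genes that could be tested, of 55471 genes in the table. The symbol that did not was *Mrpl53*, with 32 counts over all libraries and at most 5 in any of them, and its span overlaps *Gm42688* on the same strand. Of the members, 50 encode proteins of the large subunit, among them *Mrps18a* and *Mrps30*, whose symbols point to the small subunit but whose proteins sit in the large one. Another 26 encode small subunit proteins, and *Mrps36* is today counted with the 2-oxoglutarate dehydrogenase complex and not with the ribosome.

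Mitochondria carry ribosomes of their own, which sit at the inner membrane and translate the few mRNAs of mitochondrial DNA, all of them for core subunits of the respiratory chain and ATP synthase. Their rRNA comes from mitochondrial DNA, whereas every protein of both subunits is encoded in the nucleus, made in the cytosol and imported. Some of these proteins have counterparts in bacterial ribosomes and others exist only in mitochondria. In muscle this machinery supplies the respiratory chain that sustains endurance work.

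The libraries came from 16 mice, 1 library each. 10 were labelled *Npr1*+/- (the B6.129-Npr1tm1Gar/J line, backcrossed to C57BL/6J, with 1 disrupted copy of the gene for the natriuretic peptide receptor GCA in the whole body), and 6 were labelled *Npr1*+/+ and were their littermates. All mice were 12 weeks old at the start and received HFD with 60% of kcal from lipids for 12 weeks, so that no mouse on another diet enters these comparisons. Body weight was 43.6 ± 3.79 g (SD, n = 10) under the first label and 47.4 ± 4.69 g (SD, n = 6) under the second, and both labels were spread over 4 cages. The labels do not say which muscle was taken. Summed markers of fast fibres lay between 50230 and 133106 CPM, and those of slow fibres between 117 and 258 CPM. Of the slow fibre genes, *Myl3* had the highest median, 110 CPM, and *Myh7* the lowest, 0.404 CPM.

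Between 15273472 and 59682677 fragments were counted per library, and the lowest count of any member in any library was 129, for *Mrps33*. The mean of *Npr1* itself was 13.6 ± 3.87 CPM (SD, n = 10) under the label *Npr1*+/-, where its median was 12.04 CPM. Under *Npr1*+/+ the mean was 12.2 ± 1.05 CPM (SD, n = 6) and the median 12.4 CPM. Its highest values, 22.2 and 17.6 CPM, were in replicates 6 and 7 labelled *Npr1*+/-, which also had the highest endothelial marker sums, and without them the mean of that label was 12.1 ± 1.93 CPM (SD, n = 8). Its fold change was 0.09 ± 0.20 on the log2 scale (standard error), with an adjusted p of 1 in edgeR. Counts over the whole gene do not separate RNA of the disrupted copy from that of the intact one. CPM are counts scaled to 1 library size with TMM. Replicate 3 labelled *Npr1*+/+ had 20.3 CPM of *A930005H10Rik* on chromosome 3, between the 16.2 and 37.7 CPM that bound the libraries of the other label and above the 8.24 to 8.98 CPM of the other 5 libraries of its own. It stood in the same way at *Rps3a3* on chromosome 13, whose near copies could share its reads, with 30.4 CPM against 0.111 to 0.704 CPM. All directions below are therefore between libraries as labelled, and the main counts for the label are also given without that library.

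Promoter windows were searched for short sequence motifs, and none of these was in every member. RefSeq windows of GRCm38.p6, from 250 bases before to 50 bases after an annotated start, were matched by symbol for 68 of the 77 members. No window was matched for *Mrpl4*, *Mrpl13*, *Mrpl15*, *Mrpl19*, *Mrpl38*, *Mrpl54*, *Mrps28*, *Mrps34* and *Mrps35*. 5 windows are printed here 5′ to 3′ on the strand of the gene, in the order *Mrpl12* (chr11:120484387-120484686, plus strand), which had the highest level and the widest spread of all members, *Mrpl32* (chr13:14612988-14613287, minus strand), the next widest by SD, *Mrpl9* (chr3:94443086-94443385, plus strand), which had the smallest p between the labels, *Mrps18b* (chr17:35916391-35916690, minus strand), which did not follow the other members, and *Mrps17* (chr5:129715247-129715546, plus strand), which had the narrowest spread. Capitals mark matches to the motifs of NRF1 (GCGCA, any base, GCGC), ETS factors (CCGGAAG) and YY1 (AANATGGC) on either strand.
Mrpl12: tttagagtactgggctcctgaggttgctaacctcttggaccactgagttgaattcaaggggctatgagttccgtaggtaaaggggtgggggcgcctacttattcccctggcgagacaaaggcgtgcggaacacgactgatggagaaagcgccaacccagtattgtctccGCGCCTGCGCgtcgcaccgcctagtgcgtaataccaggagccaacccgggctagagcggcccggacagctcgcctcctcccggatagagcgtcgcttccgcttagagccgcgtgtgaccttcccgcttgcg
Mrpl32: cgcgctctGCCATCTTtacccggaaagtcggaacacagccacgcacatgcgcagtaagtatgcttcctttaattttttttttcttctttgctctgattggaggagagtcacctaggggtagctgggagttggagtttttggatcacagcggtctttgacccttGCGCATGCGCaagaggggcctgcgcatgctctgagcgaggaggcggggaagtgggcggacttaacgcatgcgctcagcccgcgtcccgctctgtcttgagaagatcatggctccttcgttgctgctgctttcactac
Mrpl9: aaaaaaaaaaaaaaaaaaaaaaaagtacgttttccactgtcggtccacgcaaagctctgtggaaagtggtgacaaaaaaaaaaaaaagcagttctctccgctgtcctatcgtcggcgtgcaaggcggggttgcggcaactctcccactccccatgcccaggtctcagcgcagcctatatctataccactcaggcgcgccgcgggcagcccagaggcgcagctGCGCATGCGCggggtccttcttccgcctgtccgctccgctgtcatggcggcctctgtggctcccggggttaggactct
Mrps18b: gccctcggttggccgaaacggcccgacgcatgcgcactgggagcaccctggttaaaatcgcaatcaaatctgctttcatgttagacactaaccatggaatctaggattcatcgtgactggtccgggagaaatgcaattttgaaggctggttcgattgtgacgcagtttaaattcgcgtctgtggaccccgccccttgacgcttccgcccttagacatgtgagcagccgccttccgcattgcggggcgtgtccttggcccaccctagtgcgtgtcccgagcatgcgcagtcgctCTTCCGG
Mrps17: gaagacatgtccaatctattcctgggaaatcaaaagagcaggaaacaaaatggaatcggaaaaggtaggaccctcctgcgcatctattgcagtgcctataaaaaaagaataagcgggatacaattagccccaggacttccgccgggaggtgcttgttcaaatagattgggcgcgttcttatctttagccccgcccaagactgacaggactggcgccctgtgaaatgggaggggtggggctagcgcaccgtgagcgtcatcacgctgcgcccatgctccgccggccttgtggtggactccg

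The NRF1 motif, bound by a regulator of nuclear genes for mitochondrial proteins, stood 81 bases before the start of *Mrpl12*, 87 before that of *Mrpl32* and 28 before that of *Mrpl9*. *Mrpl32* also held the YY1 motif, and *Mrps18b* held the ETS motif 43 bases after its RefSeq start. The start of the counted gene in the deposited table lay 51 bases downstream of the RefSeq one for *Mrps18b*, so that the whole window lies before it, and at most 24 bases away for the other 4. The window of *Mrps17* held none of the 3. Over the 68 members, 13 windows (19.1%) held the NRF1 motif, against 5.19% of the windows of 27025 genes and 11.1% of those of the 10467 tested genes that have one. The ETS motif was in 36.8% of members, against 9.93% of all genes and 19.3% of tested ones, and the YY1 motif in 30.9%, against 6.96% and 9.67%. The SP1 motif (GGGCGG) was in 50% of members, against 38.2% of all genes and 67.3% of tested ones. For CCAAT the shares were 38.2%, 41.1% and 42.3%, and for the E-box (CACGTG) 7.35%, 8.09% and 11.6%. The ERR motif (TNAAGGTCA) was in 0 members and in 0.955% of tested genes. No motif is contained in another of these. A match is only a run of letters in this window. Members with and without the NRF1 motif had median SDs over mice of 0.36 and 0.33 on the log2 CPM scale.

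Levels of the members, corrected for gene length, ran from 4.26 to 181 FPKM as medians over mice. The median over members was 23.2 FPKM (CPM divided by the deposited gene length in kilobases), with 28.0 FPKM for large subunit and 14.1 FPKM for small subunit genes, against 2.42 FPKM over all genes tested. *Mrpl12*, whose protein forms the stalk to which translation factors dock, was highest with a median of 181 FPKM and a range of 80.1 to 398 FPKM over mice. Next came *Mrps28* with 140 FPKM, *Mrpl54*, a protein found only in mitochondria, with 123 FPKM, *Mrps21* with 113 FPKM and *Mrpl2*, a core protein near the peptidyl transferase centre, with 111 FPKM. The ranges of these 5 over mice overlapped, although *Mrpl12* was above *Mrps28* in every library. The lowest levels belonged to *Mrpl23*, at the exit of the peptide tunnel, with 4.26 FPKM, *Mrps35* with 4.52 FPKM, *Mrps10* with 4.71 FPKM and *Mrps25* with 5.18 FPKM, and their ranges also overlapped. The order depends on the length used. With the length of the coding transcripts, 7 of the 10 highest members were shared, *Mrpl42* came first with 481 FPKM, *Mrpl12* was the third with 210 FPKM, and *Mrpl33* moved from rank 66 to rank 8. Of the 4 lowest members 2 were shared, whereas *Mrpl23* moved to rank 52 with 30.1 FPKM and *Mrps10* to rank 46 with 35.8 FPKM. *Mrpl42* and *Mrpl33* are named after their values were seen.

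**Figure D1:**
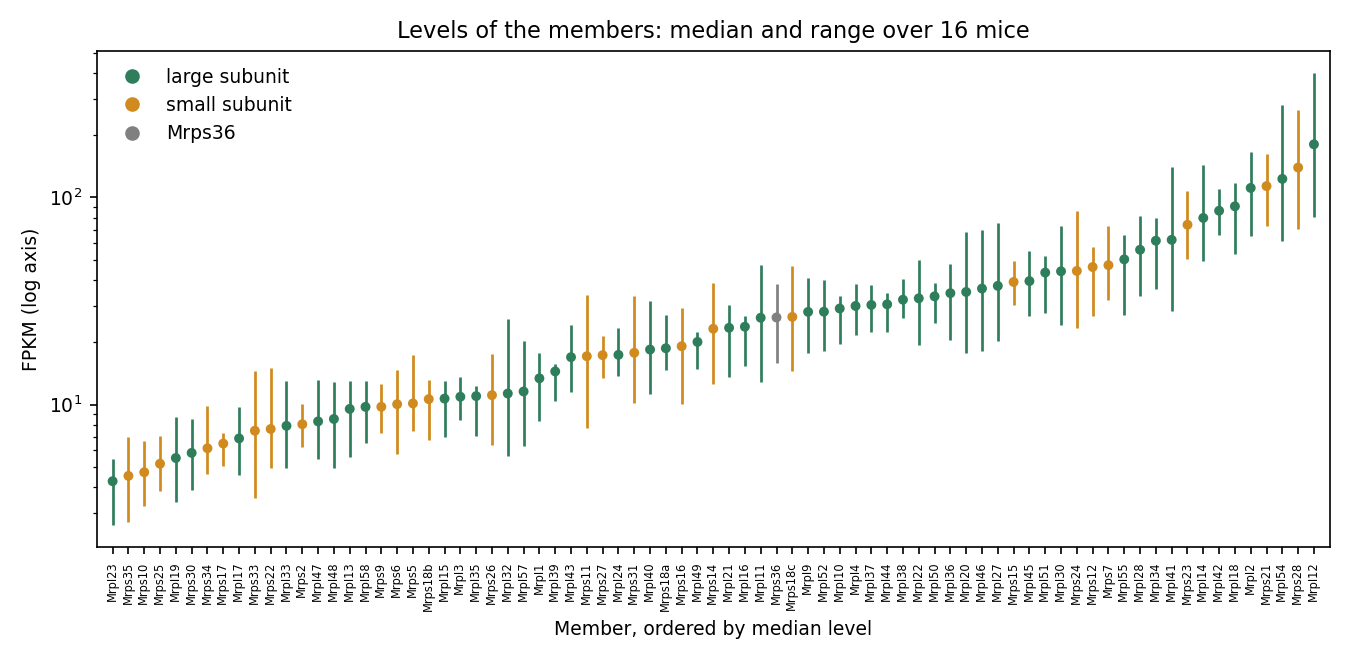
Level of each of the 77 members in FPKM on a log axis, as the median (point) and the lowest to highest of 16 mice (line), coloured by subunit. With the deposited gene length, *Mrpl12* has the highest median, 181 FPKM, and *Mrpl23* the lowest, 4.26 FPKM.

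The members moved from mouse to mouse as a block, with a median deviation from their means of -0.63 to 0.48 on the log2 CPM scale. Their summed CPM was lowest in replicates 7, 6 and 5 labelled *Npr1*+/-, with 3209, 3380 and 3941 CPM, and highest in replicate 9 of the same label, with 7254 CPM. Between them lay the other 6 libraries of that label, from 4701 to 5734 CPM, and all 6 labelled *Npr1*+/+, from 4617 to 6097 CPM. Libraries labelled *Npr1*+/- thus held both ends of the range, and the labels overlapped. The mean was 4935 ± 1213 CPM (SD, n = 10) and 5274 ± 546 CPM (SD, n = 6), a ratio of 93.6%. Replicate 7 labelled *Npr1*+/- was the lowest of 16 libraries for 51 members and replicate 6 for 21, and replicate 9 was the highest for 43.

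**Figure D2:**
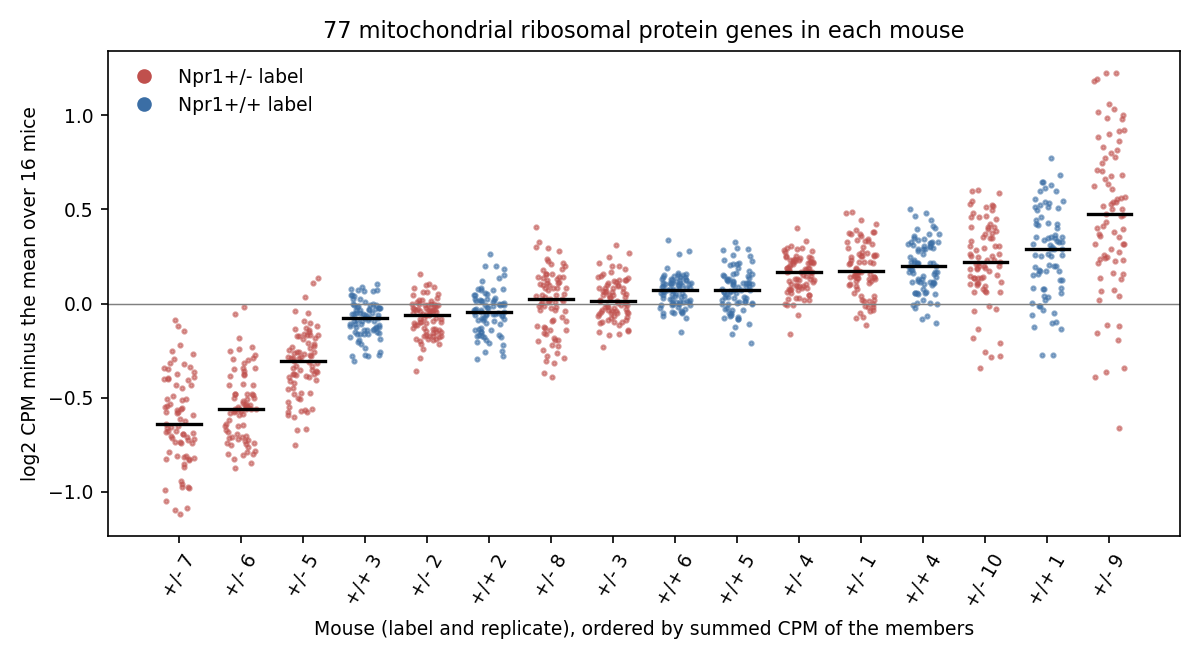
Each point is 1 of the 77 members in 1 mouse, as its log2 CPM minus its mean over the 16 mice, and the black bar is the median over members. Mice are ordered by the summed CPM of the members. The bars run from -0.63 to 0.48, and both ends are libraries labelled *Npr1*+/-.

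Across the 16 mice, the log2 CPM of each member was set against the mean of the other members. The median Pearson r was 0.91, and 74 of 77 members had an r above 0.5, whereas the other 14254 genes tested had a median of -0.07 against the members' mean and 27.4% of them were above 0.5. These are descriptions over 16 mice, whose libraries share their depth and composition across genes. After label, cage and body weight were taken out, the median was 0.92, with 73 members above 0.5. 3 members did not follow the block. *Mrps18b* had an r of -0.03, *Mrps2*, a small subunit protein with bacterial counterparts, one of 0.10 and *Mrps27*, which is particular to mitochondria, one of 0.15. *Mrps2* is named after its values were seen.

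*Mrpl12* shows the block at its widest. Under the label *Npr1*+/- its CPM was 309, 234, 259, 290, 180, 145, 123, 266, 609 and 353 in replicates 1 to 10, and under *Npr1*+/+ it was 404, 280, 245, 299, 273 and 287 in replicates 1 to 6. Both the lowest 3 values and the highest one carried the label *Npr1*+/-. Its range was 4.97-fold and its SD 0.54 on the log2 CPM scale. The next SDs were 0.53 for *Mrpl32* and *Mrpl54* and 0.52 for *Mrpl41*, whose ranges were 4.58-fold, 4.50-fold and 4.96-fold. The lowest SDs were 0.14 for *Mrps17*, which ranged 1.44-fold from 32.9 to 47.5 CPM, 0.16 for *Mrpl39* and 0.17 for *Mrpl38*. The median SD of the members was 0.33, against 0.38 over all genes tested. *Mrpl41*, *Mrpl32*, *Mrps17*, *Mrpl39* and *Mrpl38* are named after their values were seen.

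The paralogs of the S18 family behaved apart from each other. *Mrps18c*, which keeps the place of the bacterial protein in the small subunit, had an r of 0.91 with the other members and *Mrps18a*, in the large subunit, one of 0.71. *Mrps18b* had 27.4, 19.3, 26.9, 19.96, 24.6, 21.5, 20.2, 22.1, 14.1 and 26.2 CPM in replicates 1 to 10 labelled *Npr1*+/- and 20.8, 22.3, 19.97, 25.7, 27.4 and 23.9 CPM in replicates 1 to 6 labelled *Npr1*+/+. Its lowest value was in replicate 9 labelled *Npr1*+/-, the library that was highest for most members, with 49.97 CPM of *Mrps18c*, the highest of 16. The lowest values of *Mrps27* and *Mrps2*, 28.2 and 18.2 CPM, came from that same library.

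Other measures of the libraries moved with the summed level. Over all genes tested, the slope of a library's log2 deviation on log2 gene length ran from 0.32 in replicate 7 labelled *Npr1*+/- to -0.19 in replicate 9, and the log2 summed level of the members had a Pearson r of -0.96 and a Spearman rho of -0.93 with it (n = 16 mice; r = -0.91 without the 2 mice farthest from the median slope). Members are short genes, with a median length of 2533 bases against 4197 over all genes tested. With the length trend of each library removed, the members' median deviation still ran from -0.48 to 0.36, against -0.63 to 0.48 before, and 66 members had an r above 0.5 with the others (median 0.84). The summed endothelial markers *Pecam1*, *Cdh5* and *Kdr* were at 391 and 347 CPM in replicates 7 and 6 labelled *Npr1*+/- and at 96.2 CPM in replicate 9, with an r of -0.93 and a rho of -0.79 (r = -0.81 without the 2 farthest mice). None of the 3 was at 0 in any library, and each had an r between -0.93 and -0.83 with the members' mean.

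The remaining marker sums were less closely tied to the members. The macrophage sum, of 32.3 to 153 CPM, had an r of 0.80 (0.64 without the 2 farthest mice), the erythrocyte sum, of 88.0 to 510 CPM, one of 0.62 (0.19), and the fast fibre sum one of -0.62 (-0.55). Within the fast fibre list the marker genes parted, with an r of -0.83 for *Myh4* and of 0.97 for *Mylpf*. So did the genes of the slow fibre list, with -0.84 for *Atp2a2*, -0.72 for *Myh7* and 0.58 for *Myl3*, and of the tendon list, with 0.80 for *Scx*, -0.75 for *Comp* and -0.62 for *Fmod*. The slow fibre sum had an r of 0.14 (0.18 without the 2 farthest mice), the adipocyte sum one of 0.18 (-0.03) and the tendon sum one of -0.01 (0.48). Body weight had an r of 0.28 (0.10) and depth one of -0.22 (-0.12). The part that gene length, endothelial RNA or other cells have in the block was not tested. In bulk RNA, fewer cells of a type and less RNA per cell cannot be told apart.

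**Figure D3:**
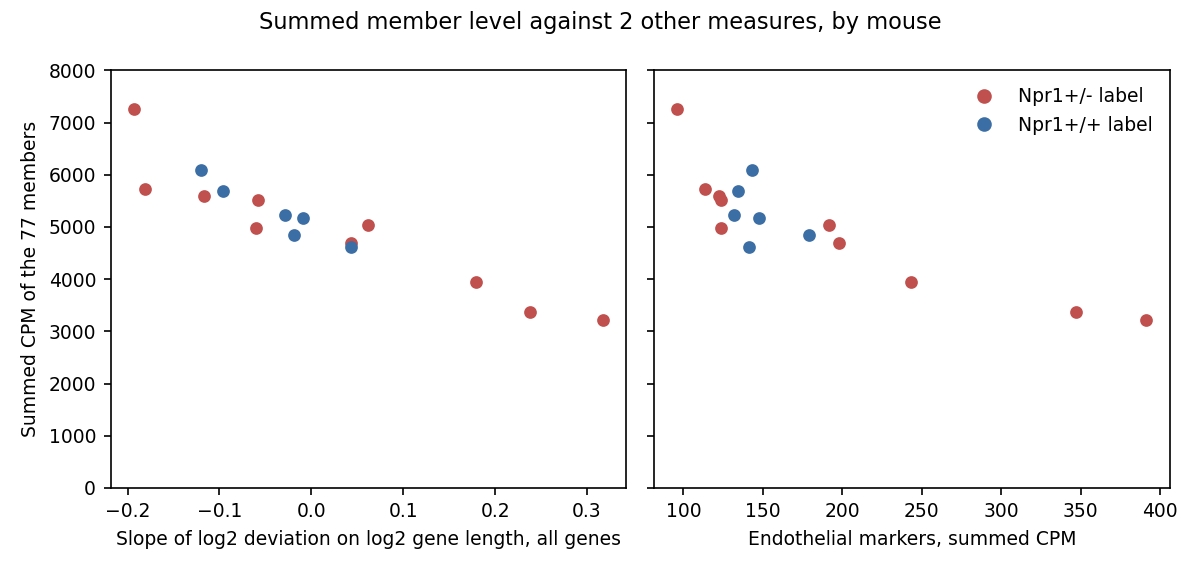
Summed CPM of the 77 members (vertical axis, from 0) in each of 16 mice against the slope of log2 deviation on log2 gene length over all genes tested (left) and the summed CPM of 3 endothelial markers (right). Replicates 7 and 6 labelled *Npr1*+/-, with 3209 and 3380 CPM, lie at the right of both panels and replicate 9, with 7254 CPM, at the left.

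These libraries allow muscle gene expression to be compared between mice with 1 and with 2 intact copies of *Npr1*, as labelled, and no member passed the test. Tested with edgeR's quasi-likelihood test on label, cage and body weight, 0 of 77 members had an adjusted p under 0.05 (0% of all genes tested), and 0 had an unadjusted p under 0.05 (1.05% of all genes). DESeq2 called 0 members as well, against 6 of all genes (0.0419%). The coefficient was below 0, meaning lower under the label *Npr1*+/-, for 58 members, or 75.3%, against 51.6% of all genes, and the median log2 fold change was -0.09 against -0.01. That median was -0.25 with a replicate block replacing cage, -0.17 with cage as the only covariate and -0.04 with body weight as the only covariate. Replicates 7 to 10 labelled *Npr1*+/- share their number with no other mouse, so the fit with a replicate block does not draw on them. Since the members moved as 1 block, these 77 directions are not 77 observations. The count was 36 of 50 in the large and 22 of 26 in the small subunit, 37 of 48 among members with bacterial counterparts and 21 of 28 among those found only in mitochondria. Without replicate 3 labelled *Npr1*+/+ these were 36, 20, 36 and 20, and 56 over all members (46.0% of all genes). The count over all members was 28, with a median of 0.03, without replicate 4 of that label, 76 without replicate 9 labelled *Npr1*+/-, 45 without replicates 6 and 7 labelled *Npr1*+/-, and 77 with cage as the only covariate. The CPM of the labels overlapped for every member, whereas 0.00698% of all genes did not overlap.

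**Figure D4:**
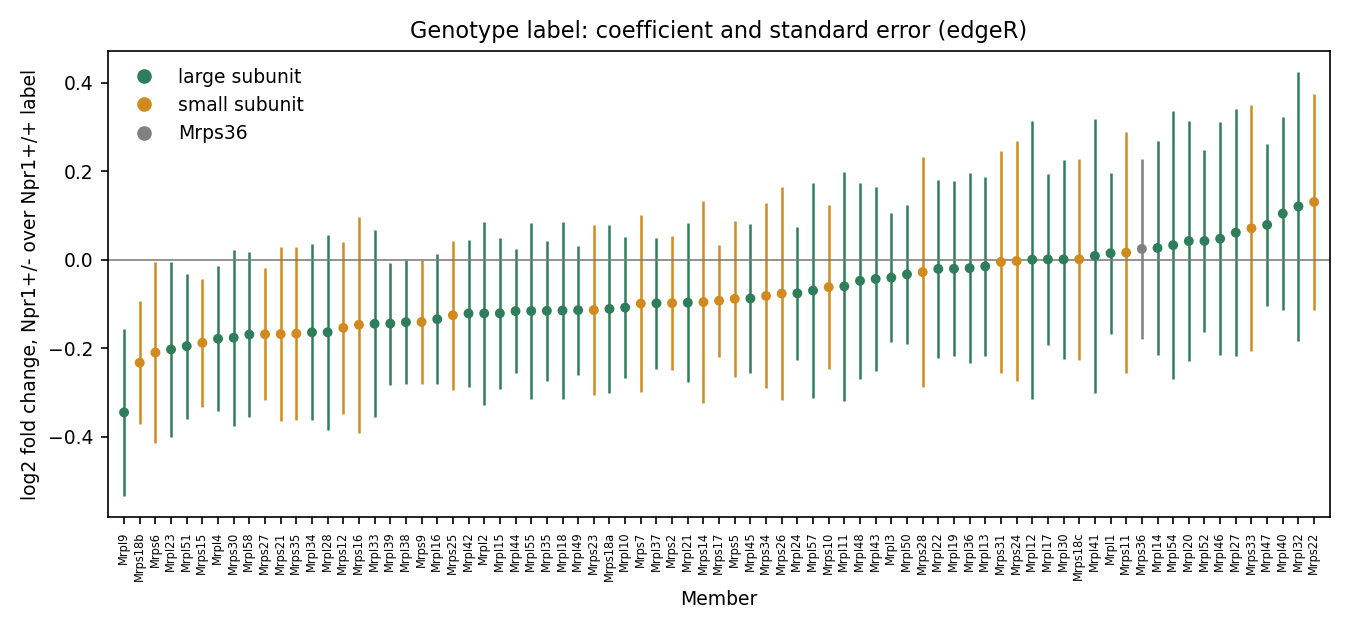
Log2 fold change of each of the 77 members between the libraries labelled *Npr1*+/- and *Npr1*+/+ (point) with its standard error (line), from edgeR with cage and body weight as covariates, coloured by subunit. The points run from -0.34 for *Mrpl9* to 0.13 for *Mrps22*, and 58 are below 0.

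*Mrpl9* had the smallest p of the members. Its CPM was 74.95, 74.0, 72.8, 81.0, 57.8, 48.2, 48.0, 76.5, 105 and 63.3 in replicates 1 to 10 labelled *Npr1*+/- and 110, 80.3, 71.7, 93.8, 92.1 and 95.8 in replicates 1 to 6 labelled *Npr1*+/+. 5 of the 6 latter libraries, all but replicate 3, lay above every library labelled *Npr1*+/- except replicates 4 and 9. The difference was -0.34 ± 0.19 on the log2 scale (standard error; p = 0.0870 and adjusted p = 1 in edgeR) and stayed between -0.41 and -0.28 with each mouse left out.

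The next smallest p on the lower side belonged to *Mrps18b*, with a log2 fold change of -0.23, *Mrps15*, a small subunit protein with a bacterial counterpart, with -0.19, *Mrpl51* with -0.19 and *Mrps27* with -0.17. With each mouse left out, *Mrps18b* ran from -0.29 to -0.12, *Mrps15* from -0.26 to -0.03, *Mrpl51* from -0.23 to -0.08 and *Mrps27* from -0.22 to -0.06, each nearest to 0 without replicate 4 labelled *Npr1*+/+. On the higher side the smallest p belonged to *Mrps22* with 0.13, followed by *Mrpl40* with 0.10 and *Mrpl47* with 0.08, and all of these had an adjusted p of 1 in edgeR. *Mrpl40* ran from 0.0002 without replicate 9 labelled *Npr1*+/- to 0.20 without replicate 6, and *Mrps22* and *Mrpl47* fell to -0.005 and -0.01 without replicate 9. *Mrpl12* averaged 277 ± 138 CPM (SD, n = 10) under the label *Npr1*+/- and 298 ± 54.9 CPM (SD, n = 6) under *Npr1*+/+. Its fitted difference was 0.0005 ± 0.31 on the log2 scale (standard error), and the sign changed under several alternatives. Of the stalk genes, *Mrpl10* had -0.11 and *Mrpl11* -0.06. With each mouse left out, *Mrpl10* ran from -0.23 to 0.019 and *Mrpl11* from -0.21 to 0.11. *Mrpl45*, which anchors the ribosome to the inner membrane at the tunnel exit, had -0.09. It had -0.01 without replicate 6 labelled *Npr1*+/- and -0.15 without replicate 5 labelled *Npr1*+/+. None of these passed the test.

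Subunit genes with other names and assembly factors were also read against the 51.6% of all genes with a coefficient below 0. Of *Dap3*, *Ptcd3*, *Aurkaip1*, *Chchd1* and *Gadd45gip1*, 4 of 5 had a coefficient below 0 (median -0.08) and 0 were called. *Dap3*, a GTP-binding protein of the small subunit, averaged 86.0 ± 15.8 CPM (SD, n = 10) and 96.5 ± 15.6 CPM (SD, n = 6), which is -0.08 on the log2 scale in the fit, -0.003 without replicate 4 labelled *Npr1*+/+ and -0.18 without replicate 5 of that label. Of 25 assembly factors, 14, or 56%, had a coefficient below 0 (median -0.03) and 0 were called. Without replicate 3 labelled *Npr1*+/+ both counts were the same. *Eral1*, a chaperone of the small subunit rRNA, had a log2 fold change of -0.14 (standard error 0.14). It ran from -0.21 without replicate 5 labelled *Npr1*+/+ to 0.015 without replicate 4 of that label. *Nsun4*, an rRNA methyltransferase, had -0.14 (standard error 0.16), and -0.05 without replicate 9 labelled *Npr1*+/-. Both genes had an adjusted p of 1 in edgeR.

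Within cages the direction was not the same. In cage 675, with 2 mice of each label, 71 of 77 members had a lower mean log2 CPM under the label *Npr1*+/-, in cage 677, with 1 and 2 mice, 74, and in cage 678, with 4 and 1, 69. The 71 in cage 675 was the same without replicate 3 labelled *Npr1*+/+. In cage 676, with 3 and 1, it was 24. Of all genes tested, 50.5% were lower under that label in cage 675, 48.7% in cage 677, 55.3% in cage 678 and 54.8% in cage 676. The ratio of the summed CPM was 0.890, 0.700, 0.908 and 1.04 in the same order, and no test was made within a cage. Replicates 6, 5 and 7 labelled *Npr1*+/-, the libraries lowest in summed CPM, were in cages 675, 677 and 678. In cage 675, replicate 3 labelled *Npr1*+/- had 5039 CPM, above the 4837 and 4617 CPM of replicates 2 and 3 labelled *Npr1*+/+. Over the 4 cages, 0 members had an adjusted p under 0.05 between cages (0.0279% of all genes), and 1, *Mrps18b*, had an unadjusted p under 0.05 (p = 0.0250, adjusted p = 0.656 in edgeR), against 7.36% of all genes.

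No member passed the test for body weight with all mice. The fitted slope was below 0 for 12 of 77 members, or 15.6%, against 52.7% of all genes, and its median was 0.23 on the log2 scale per 10 g. Another scaling gave 4 or 7 such members, removal of the length trend 23, and leaving out each mouse 3 to 32. With a replicate block replacing cage 73 of 77 slopes were below 0, but that fit does not draw on replicates 7 to 10 labelled *Npr1*+/-. No member had an adjusted p under 0.05 (0% of all genes), and 5, or 6.49%, had an unadjusted p under 0.05, against 17.1% of all genes. These were *Mrps22* with a slope of 0.77 per 10 g, *Mrpl47*, at the tunnel exit, with 0.62, *Mrps18c* with 0.61, *Mrps18b* with -0.44 and *Mrps27* with -0.45, and the smallest adjusted p was 0.247 in edgeR.

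A single mouse decided these calls. Without replicate 3 labelled *Npr1*+/-, which weighed 40.1 g, 29 members, or 37.7%, had an adjusted p under 0.05 with body weight in edgeR, against 22.1% of the 14284 genes then tested. All 29 were higher with weight, where 8.44% of the genes tested were called in that direction. The median slope was then 0.64 per 10 g. *Mrps22* had a slope of 1.33 (standard error 0.29, adjusted p = 0.00821), *Mrpl47* 0.999 (adjusted p = 0.0104), *Mrps28* 1.23 (0.0154) and *Mrps18c* 1.11 (0.0155). *Mrpl12* was among them with 1.33 (0.0338), whereas *Mrps18b* and *Mrps27* were not. In the same fit 4 members, or 5.19%, differed between cages, against 6.08% of all genes, and these were *Mrpl47*, *Mrps28*, *Mrps31* and *Mrpl1*, the last pair named after their values were seen. Leaving out any other single mouse gave 0 members called with body weight. The body weights are those of the labels and were not checked against another measure, and why this mouse has such weight in the fit was not tested.

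**Figure D5:**
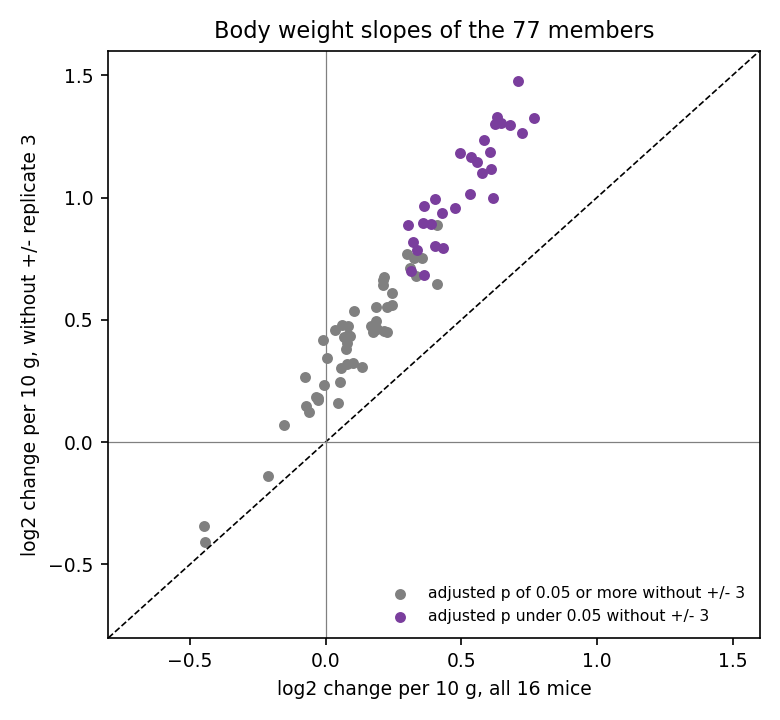
Change in log2 level per 10 g of body weight for each of the 77 members, fitted with all 16 mice (horizontal) and without replicate 3 labelled *Npr1*+/- (vertical), with the line of equal values dashed. Purple points are the 29 members with an adjusted p under 0.05 in the second fit, and all of them are above 0 on both axes.

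Reads of some members cannot be assigned with certainty. The span of 36 members overlaps another gene, on the same strand for 11, among them *Mrps28*, *Mrps18c* and *Mrpl51*, and on the opposite strand for 31, among them *Mrpl9*, *Mrps18b* and *Mrps22*. 5 pseudogene symbols were left out of the members, and *Mrpl48-ps*, the most abundant of them, had a median of 2.09 CPM.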

How the data were processed

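Skeletal muscle RNA of 16 mice was sequenced as paired-end reads. The authors aligned them with STAR to GRCm38, used featureCounts on GENCODE M24 genes for fragments whose ends both aligned, and deposited the raw counts per gene, not normalized, with a gene length. The submitters' processing notes name STAR 2.7.2b and featureCounts 1.6.4. The paper's methods and the labels name different library kits, and the strand setting of the counting is not given in the sources used here, so sense and antisense reads of overlapping genes may be mixed.

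The model held label, cage and body weight. It was fitted in edgeR 4.0.16 (R 4.3.3) by glmQLFit with robust and legacy set to TRUE, after filterByExpr by label and TMM scaling, and its glmQLFTest p-values received a Benjamini-Hochberg adjustment over all genes tested. Symbols came from GENCODE M21 for 55144 of 55471 identifiers. Each library is 1 mouse, so p-values measure the spread between mice. FPKM divide CPM by the deposited length. Library totals set the precision, and a count floor of 3 covers counting error only. No sample was left out.

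The members, gene lists and tests were chosen with earlier results of these data known. The genes named are *Mrpl12*, the S18 paralogs, the members with the smallest p for each comparison, the highest and lowest by level, *Mrpl10*, *Mrpl11* and *Mrpl45*, and *Dap3*, *Eral1* and *Nsun4* from the other lists. Alternatives were other covariates, a replicate block, other scalings and filters, DESeq2 1.42.0, removal of the length trend and leaving out each mouse. Same-numbered mice are different animals. The steps were tested on simulated data.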

Additional observations from a re-analysis of the deposited data

Results flagged for a closer look

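The values of the named members and their sum were searched within each label for a library far from the rest, in 48 groups, where chance flags about 1 in 20. It was found in 11, and these are not independent because the members move together. Replicate 9 labelled *Npr1*+/- stood highest for *Mrpl12* (609 CPM, next 353), *Mrps28* (206 CPM, next 132), *Mrpl54* (230 CPM, next 140), *Mrps22* (59.8 CPM, next 40.9), *Mrpl47* (58.0 CPM, next 41.1) and *Mrps18c* (49.97 CPM, next 32.7). Replicate 1 labelled *Npr1*+/+ stood highest within its label for *Mrpl12* (404 CPM, next 299), *Mrpl45* (143 CPM, next 116), *Mrpl47* (51.1 CPM, next 38.3), *Mrps22* (50.1 CPM, next 34.3) and *Mrps18c* (37.8 CPM, next 30.1). These are also the 2 libraries with the highest summed CPM of all members. The summed CPM itself was not far from the rest in either library.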

How the results depend on the processing

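With every alternative run, 0 members were called between the labels. At an adjusted p under 0.05, 0 to 8 of all genes were (8 with no filter on low counts), and at an unadjusted one 1.05%. DESeq2 gave no adjusted p for 31 members with body weight. The all-gene median shifted by less than 0.1 (log2) in each. Members with a coefficient below 0 numbered 52 to 77 in the other fits with all mice. Among these, in the replicate block, replicates 7 to 10 labelled *Npr1*+/- did not inform the label coefficient. The count was 45 without replicates 6 and 7 labelled *Npr1*+/-, and 28 to 76 with each mouse left out. With each mouse left out, the members' median log2 fold change ran from -0.149 to 0.033, the highest without replicate 4 labelled *Npr1*+/+. In the other fits that median lay between -0.25 (replicate block) and -0.039 (without replicates 6 and 7 labelled *Npr1*+/-), with -0.17 for cage only, -0.041 for body weight only and -0.061 with the length trend removed. At an unadjusted p under 0.05, 1 member was called between cages and 5 with body weight. With each mouse left out, 0 to 4 members were called between cages and 0 to 29 with body weight at an adjusted p under 0.05. Both were highest without replicate 3 labelled *Npr1*+/-, where 6.08% and 22.1% of all genes were called.

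Members lower with higher body weight numbered 12 as reported, 73 with a replicate block in place of cage, 7 with RLE size factors, 4 with library size only, 7 with DESeq2, 23 with the length trend removed, 26 without replicates 6 and 7 labelled *Npr1*+/- (added after seeing the data), and 3 to 32 with each mouse left out (3 without replicate 3 labelled *Npr1*+/-, 5 without replicate 3 labelled *Npr1*+/+, 32 without replicate 7 labelled *Npr1*+/-). The cause was not tested.

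Log2 fold changes between labels that changed sign were, with the label alone, -0.11 for *Mrpl12*, 0.064 for *Mrps18a*, -0.11 for *Mrps18c*, 0.019 for *Mrps27*, -0.081 for *Mrps22*, -0.092 for *Mrpl47* and -0.040 for *Mrpl54*. With cage only they were -0.25 for *Mrpl12*, -0.25 for *Mrps18c*, -0.19 for *Mrps22*, -0.11 for *Mrpl40*, -0.17 for *Mrpl47* and -0.22 for *Mrpl54*, and with body weight only -0.0031 for *Mrpl12*, 0.042 for *Mrps18a*, -0.022 for *Mrps18c* and 0.019 for *Mrpl11*. With the replicate block they were -0.45 for *Mrpl12*, -0.36 for *Mrps18c*, -0.30 for *Mrps22*, -0.13 for *Mrpl40*, -0.23 for *Mrpl47*, -0.37 for *Mrpl54* and 0.066 for *Nsun4*. By library size only they were -0.031 for *Mrpl12* and -0.020 for *Mrps18c*, with the length trend removed 0.0087 for *Mrps28*, and without replicates 6 and 7 labelled *Npr1*+/- 0.060 for *Mrps28* and 0.0047 for *Mrpl11*. With each mouse left out, the ranges were -0.21 to 0.015 for *Eral1*, -0.23 to 0.019 for *Mrpl10*, -0.21 to 0.11 for *Mrpl11*, -0.23 to 0.12 for *Mrpl12*, -0.22 to 0.026 for *Mrpl2*, -0.010 to 0.15 for *Mrpl47*, -0.19 to 0.16 for *Mrpl54*, -0.15 to 0.036 for *Mrps10*, -0.20 to 0.12 for *Mrps18a*, -0.12 to 0.11 for *Mrps18c*, -0.0046 to 0.25 for *Mrps22* and -0.16 to 0.16 for *Mrps28*.

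The replicate block rests only on a shared number. Replicates 7 to 10 exist only under the label *Npr1*+/-, so the block fits each of them exactly. Its label and body weight coefficients rest on replicates 1 to 6 of each label. Same-numbered mice had a mean correlation of deviations of 0.08 over 6 pairs, of which 1 was over 0.1, and differently numbered mice one of -0.01. The lowest count of a member in any library was 129, and the effect of depth was not tested.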
